A study of Mus musculus with 6 samples.

Results

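Toll-like receptors recognise microbial molecules and products of damaged tissue. The genes described here are 8 of these receptors (Tlr1, Tlr2, Tlr3, Tlr4, Tlr6, Tlr7, Tlr9 and Tlr13), the co-receptor Cd14 and the adaptor Myd88. They were taken as a set of 10 named genes, and every non-control probe whose accession mapped to 1 of them was used. All 10 had a probe and all 10 were among the 16408 genes tested, of 20145 genes with a probe on the array. RNA came from skin wounds of male C57/BL6 mice harvested on day 3, read on 3 wild-type (WT) and 3 FoxO1 +/- arrays. Each array was taken as 1 animal, and the labels do not say how wounds were pooled. Each mouse had received 4 full-thickness wounds from a 4 mm punch, and a 6 mm punch took the wound with its margin. FoxO1 +/- animals carry 1 functional copy of Foxo1, a forkhead transcription factor; how the allele was made and the age of the animals are not given in the sources used here. Both groups were wounded, so the comparison is of genotype within wounds, and no unwounded skin was compared.

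Tlr1, Tlr2, Tlr4 and Tlr6 act at the cell surface, Tlr2 in pairs with Tlr1 or Tlr6 on lipopeptides and Tlr4 with Cd14 and MD-2 on lipopolysaccharide. Tlr3, Tlr7, Tlr9 and Tlr13 act in endosomes on nucleic acids. Myd88 carries the signal of all of these except Tlr3, which uses TRIF, Tlr4 uses both, and the pathway ends in NF-kappaB and interferon regulatory factors. In a wound the receptors are carried mainly by neutrophils, monocytes and macrophages, and some also by keratinocytes, endothelial cells and fibroblasts.

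Levels are log2 signals relative to the 75th percentile of their array, so 0 is that percentile and a level of 1 is 2-fold above it. Probes differ in how brightly they report, so levels are compared between arrays for 1 gene and not between genes. Foxo1 itself, on the brighter of 2 probes, was at 2.04, 1.81 and 2.32 in WT and 1.54, 1.69 and 1.49 in FoxO1 +/- wounds. The groups did not overlap on either probe, with differences of -0.48 (SE 0.14, limma adjusted p 0.650) on the brighter and -0.89 on the dimmer; whether the probes lie in the changed part of the allele was not tested. All 6 arrays shared 1 slide, with 64.3% to 71.9% of spots well above background. FoxO1 +/- replicate 3 was the dimmest, with a 75th percentile signal of 899 against 1095 to 1299 on the others. Of 10 listed keratinocyte markers 10 were measured, with a mean level of 5.23 to 5.51 in WT and 5.10 to 5.60 in FoxO1 +/- wounds. As 16408 of 20145 genes with a probe were measured, this hardly tests the skin label. In whole tissue, fewer cells of a type and less RNA per cell cannot be told apart.

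All 10 genes were well above background on all 6 arrays. Of these, 9 had a higher mean in FoxO1 +/- wounds and Tlr9 a lower one, and none passed an adjusted p of 0.05 in limma, a threshold passed by 0.00609% of all genes tested (1 gene). The median log2 difference over the 10 genes was 0.10, from -0.05 to 0.40, against a median of 0.01 over all genes, of which 53.7% had a higher mean in FoxO1 +/- wounds. At an unadjusted p under 0.05 there was 1 of the 10 genes, Tlr2, where the share of all genes was 6.25%. On the brightest probe of each gene, Tlr2 was also the 1 gene of the 10 whose genotypes did not overlap, and 11.5% of all genes had such groups. The count of 9 higher means fell to 6 without WT replicate 1 and was 8 with quantile normalization.

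**Figure D1:**
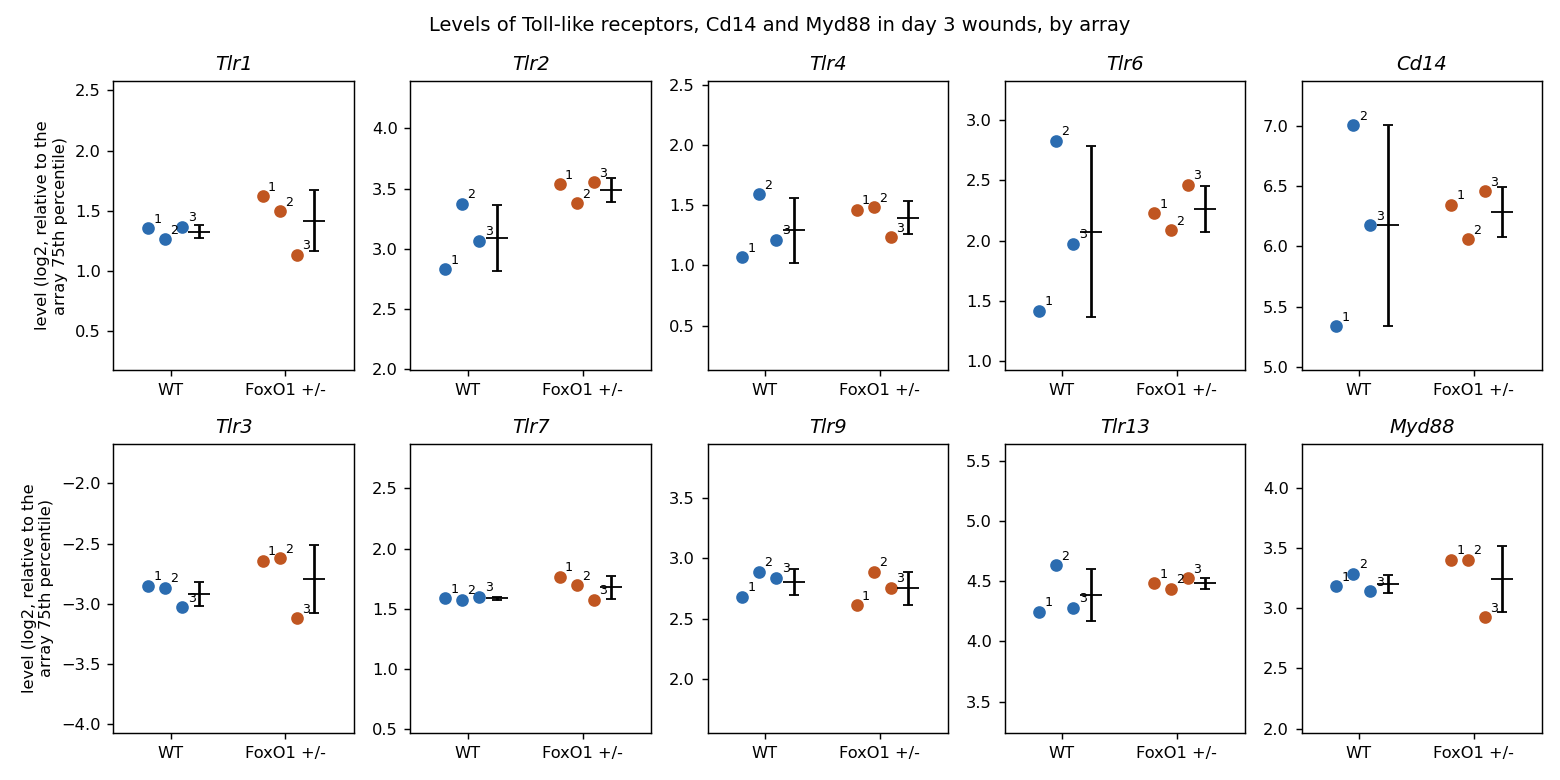
Level of each gene (log2, relative to the 75th percentile of the array) on the 3 WT (blue) and 3 FoxO1 +/- (orange) arrays, numbered by replicate; bars give the mean and SD, and every panel spans the same 2.4 log2 units so that spreads can be compared. Cd14 and Tlr6 spread over more than 1 log2 unit among the WT arrays, whereas Tlr7 spread over 0.02.

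Among the surface receptors, Tlr2 differed most between genotypes. Its probe lies on 10 spots per array, and the level was 2.83, 3.38 and 3.07 in WT replicates 1, 2 and 3 and 3.54, 3.38 and 3.55 in FoxO1 +/- replicates 1, 2 and 3. WT replicate 1 was the lowest array. The groups parted only narrowly, since FoxO1 +/- replicate 2 lay 0.00083 above WT replicate 2, while spots of the probe on 1 array had an SD of 0.037 to 0.065. With quantile normalization the groups overlapped. WT wounds averaged 3.09 ± 0.27 (SD, n = 3) and FoxO1 +/- wounds 3.49 ± 0.10 (SD, n = 3), which differ by 0.40 (SE 0.15) on the log2 scale, or 1.32-fold, with an unadjusted 95% interval of 1.02-fold to 1.69-fold. It did not pass limma's test over all genes (adjusted p 0.786), and the exact two-sided permutation p was 0.100, the smallest that 3 against 3 arrays allow. The difference was 0.27 without WT replicate 1 and 0.54 without WT replicate 2. Tlr2 lies on chromosome 3, which also carries Foxo1, and the part of that location in its difference was not tested.

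The other surface receptors overlapped between genotypes. Tlr1, the partner of Tlr2 for triacylated lipopeptides, was at 1.35, 1.26 and 1.37 in WT and 1.62, 1.50 and 1.13 in FoxO1 +/- wounds. The highest and the lowest of its 6 values were both FoxO1 +/- arrays, and the difference was 0.09 (SE 0.14, limma adjusted p 0.984). Tlr6, the partner of Tlr2 for diacylated lipopeptides, was at 1.42, 2.83 and 1.97 in WT and 2.23, 2.09 and 2.46 in FoxO1 +/- wounds. WT replicates 1 and 2 held its extremes, and all FoxO1 +/- arrays lay between them. The Tlr6 difference was 0.18 (SE 0.35, limma adjusted p 0.991), with an interval of 0.629-fold to 2.05-fold. Tlr4, the lipopolysaccharide receptor, was at 1.07, 1.59 and 1.21 in WT and 1.46, 1.48 and 1.24 in FoxO1 +/- wounds, a difference of 0.10 (SE 0.15, limma adjusted p 0.982). Without WT replicate 1 the differences of Tlr6 and Tlr4 changed sign, to -0.14 and -0.0088.

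The promoter windows of Tlr2 and Tlr6 are shown because Tlr2 had the largest genotype difference and Tlr6 a wide spread. They run from 250 bases before to 50 after the start site in RefSeq (GRCm38.p6), and capitals mark matches to the motifs searched, on both strands. The Tlr2 window is chr3:83841559-83841858 on the minus strand. Of the pair of Tlr6 windows, the 1 with matches is printed, chr5:64959117-64959416 on the minus strand. The other Tlr6 window, chr5:64959999-64960298 on the minus strand, had 0 matches to the motifs searched.
Tlr2: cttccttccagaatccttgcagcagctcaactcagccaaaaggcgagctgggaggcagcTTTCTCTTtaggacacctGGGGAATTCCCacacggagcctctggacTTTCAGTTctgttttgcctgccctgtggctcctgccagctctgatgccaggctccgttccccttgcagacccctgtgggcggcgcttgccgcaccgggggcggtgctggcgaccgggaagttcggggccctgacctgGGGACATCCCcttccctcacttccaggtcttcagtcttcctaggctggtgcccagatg
Tlr6: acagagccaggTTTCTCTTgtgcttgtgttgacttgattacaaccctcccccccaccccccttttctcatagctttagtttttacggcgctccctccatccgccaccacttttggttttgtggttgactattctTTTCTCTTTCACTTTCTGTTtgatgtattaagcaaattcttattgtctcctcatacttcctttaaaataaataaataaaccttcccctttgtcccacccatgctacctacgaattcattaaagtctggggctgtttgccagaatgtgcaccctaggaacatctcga
In the Tlr2 window 2 stretches matched the NF-kappaB motif, GGGGAATTCCC at bases 78 to 88 and GGGACATCCC at bases 243 to 252, both of them on either strand. The other capitals in these windows match AANNGAAA, the core bound by interferon regulatory factors, on the opposite strand; in the Tlr6 window overlapping matches fill bases 135 to 154. Windows were listed for 7 of the 10 genes, 9 windows in all. The NF-kappaB motif was in 2 of these 9 windows (Tlr2 and Tlr3) and in 8.46% of all 32851 windows. The interferon regulatory factor core was in 5 (for Tlr1, Tlr2, Tlr3, Tlr6 and Myd88) and in 23.9% of all windows. The PU.1 motif GAGGAAGT was in 2 (for Tlr1 and Tlr9) and in 3.2%. The FoxO motif GTAAACA was in 0 of the 9 and in 3.65% of all windows, which says only that these letters are not in these windows.

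Cd14, which hands lipopolysaccharide to the Tlr4 complex, spread most of the 10 genes. Its level was 5.34, 7.01 and 6.18 in WT and 6.35, 6.06 and 6.46 in FoxO1 +/- wounds. WT replicate 2 was 3.18-fold above WT replicate 1, while the highest FoxO1 +/- array was 1.32-fold above the lowest. WT wounds averaged 6.17 ± 0.83 (SD, n = 3) and FoxO1 +/- wounds 6.29 ± 0.21 (SD, n = 3), a difference of 0.11 (SE 0.41, limma adjusted p 0.995). Its interval ran from 0.545-fold to 2.15-fold, and the difference was -0.31 without WT replicate 1 and -0.02 with quantile normalization.

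**Figure D2:**
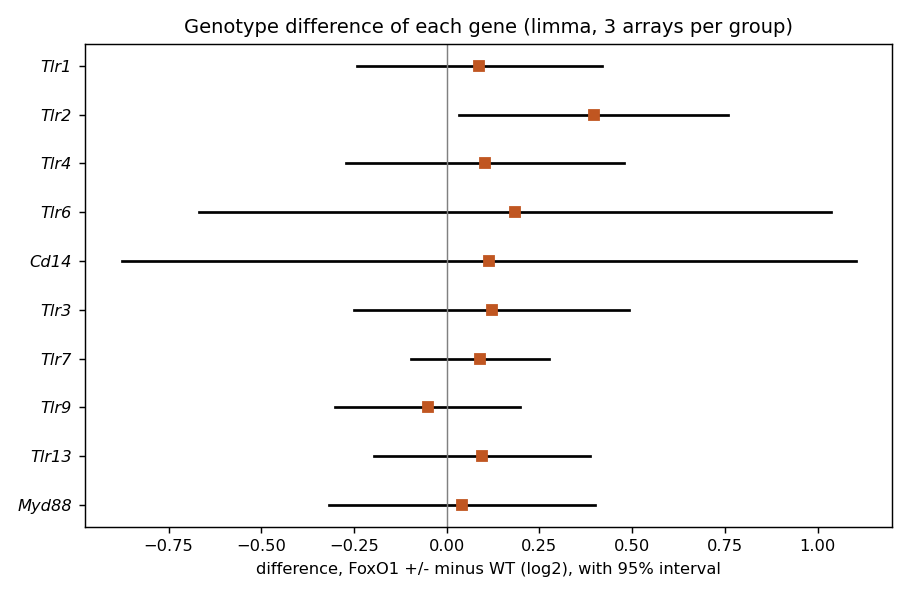
Log2 difference FoxO1 +/- minus WT of each gene (squares) with its unadjusted 95% interval from limma (lines), 3 arrays per group. The intervals of 9 genes include 0, that of Tlr2 starts at 0.03, and those of Cd14 and Tlr6 are the widest.

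Of the endosomal receptors, Tlr7, Tlr9 and Tlr13 varied less over the 6 arrays than each surface receptor, with ranges of 0.19, 0.28 and 0.39. Tlr3 did not, with a range of 0.50 against 0.49 for Tlr1. Tlr7, a receptor for single-stranded RNA, was at 1.59, 1.58 and 1.60 in WT and 1.77, 1.69 and 1.58 in FoxO1 +/- wounds on its brighter probe. Its WT arrays lay within 0.02 of each other, and the difference was 0.09 (SE 0.08, limma adjusted p 0.932). A second Tlr7 probe was at 1.46, 1.40 and 1.47 in WT and 1.76, 1.72 and 1.50 in FoxO1 +/- wounds. There the genotypes did not overlap, with a difference of 0.22 (SE 0.10, limma adjusted p 0.772 over all kept probes), so that probes of Tlr7 gave the same direction and differed on overlap. Tlr13, a receptor for bacterial ribosomal RNA, was at 4.25, 4.63 and 4.28 in WT and 4.48, 4.44 and 4.52 in FoxO1 +/- wounds, a difference of 0.09 (SE 0.12, limma adjusted p 0.972). Tlr9, the receptor for CpG DNA, was at 2.68, 2.89 and 2.84 in WT and 2.61, 2.89 and 2.76 in FoxO1 +/- wounds. Its difference of -0.05 (SE 0.10, limma adjusted p 0.992) was the only negative value, its interval was 0.812-fold to 1.15-fold, and it was 0.02 without FoxO1 +/- replicate 1. Tlr3, the receptor for double-stranded RNA, was dim, at -2.85, -2.87 and -3.03 in WT and -2.64, -2.62 and -3.12 in FoxO1 +/- wounds. The difference was 0.12 (SE 0.15, limma adjusted p 0.971).

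Myd88, measured on 10 spots per array, was at 3.18, 3.29 and 3.14 in WT and 3.40, 3.40 and 2.93 in FoxO1 +/- wounds. FoxO1 +/- replicates 1 and 2 lay above every WT array and replicate 3 below every WT array. The difference was 0.04 (SE 0.15, limma adjusted p 0.995), with an interval of 0.803-fold to 1.32-fold. It was 0.20 without FoxO1 +/- replicate 3 and -0.04 without either of the other FoxO1 +/- arrays. FoxO1 +/- replicate 3 was the lowest array for 4 of the 10 genes (Tlr1, Tlr3, Tlr7 and Myd88), and it was also the dimmest array; the part of array brightness in those low values was not tested. On the slide, FoxO1 +/- replicate 1 sat in row 1 beside all 3 WT arrays, and the other FoxO1 +/- arrays sat in row 2. Within row 1, where the comparison rests on 1 FoxO1 +/- array, the median over the 10 genes was 0.17. The row 1 values were 0.44 for Tlr2, 0.29 for Tlr1, 0.28 for Tlr3 and 0.20 for Myd88. No WT array sat in row 2, so a fit with slide row as a block gives the same differences by design and is not a second check. Every value given with slide row as a block therefore rests on that 1 FoxO1 +/- array.

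The 10 genes differed in which arrays were high and low. WT replicate 1 was the lowest of all 6 arrays for 5 genes (Tlr2, Tlr4, Tlr6, Tlr13 and Cd14), and WT replicate 2 was the highest for 4 of these (Tlr4, Tlr6, Tlr13 and Cd14) and for Tlr9. This pattern was noticed after the values were seen and is given as a description of these arrays. Cd14 and Tlr6 spread at least 2-fold over the WT arrays, 2 of 10 genes, where 5.49% of all genes did. Under every scaling tried, including quantile normalization, median centring and normexp background correction, WT replicate 2 exceeded WT replicate 1 by 1.59 to 1.68 for Cd14 and by 1.33 to 1.41 for Tlr6. Tlr1 and Tlr6 are neighbours on chromosome 5 with no gene between them in the RefSeq table, yet Tlr1 spread over 0.10 among the WT arrays and Tlr6 over 1.41.

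Most listed genes that TLR signalling induces showed the same high and low WT arrays. This contrast, here and for the cell type markers below, is of 1 array against 1 array. It was picked after the values were seen, and the genes of a list are not replicates. Of 19 measured genes of a list induced through MyD88 or TRIF, 12 were at least 2-fold higher on WT replicate 2 than on WT replicate 1, against 1.82% of all genes. Among the WT arrays, 14 of the 19 were lowest on replicate 1 and highest on replicate 2, against 19.8% of all genes. Il10, Ccl5 and Cxcl10 were lower on WT replicate 2 than on WT replicate 1. The chemokine genes Cxcl2 and Ccl4 and the cytokine gene Il1b, named after their values were seen, illustrate it. Cxcl2 was at 2.83, 4.96 and 3.89 in WT and 3.88, 3.59 and 4.28 in FoxO1 +/- wounds. Il1b was at 5.46, 7.22 and 6.49 in WT and 6.55, 5.92 and 6.53 in FoxO1 +/- wounds. Ccl4 was at 5.34, 7.31 and 6.12 in WT and 6.55, 6.23 and 6.50 in FoxO1 +/- wounds. For all of them WT replicates 1 and 2 were the lowest and the highest of the 6 arrays.

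Neutrophil markers moved with these genes among the WT arrays. Of 13 listed markers, 12 were measured, and all 12 were higher on WT replicate 2 than on WT replicate 1, 7 of them at least 2-fold, where 48.9% of all genes were higher there. Their mean level was 1.26, 2.18 and 1.70 in WT and 1.86, 1.85 and 2.14 in FoxO1 +/- wounds. The chemokine receptor Cxcr2, which rose most of the 12 from WT replicate 1 to WT replicate 2, was at 1.75, 3.36 and 2.70 in WT and 2.50, 2.19 and 2.57 in FoxO1 +/- wounds. The brightest markers, S100a9, S100a8 and Csf3r, rose by 0.36, 0.69 and 0.37. Camp, Ltf, Mpo and Ngp, also among the 7, had levels below 0 on every array. Of the 12 markers, 8 had a higher mean in FoxO1 +/- wounds, and Cxcr2 had a lower one. Ly6g had no mapped probe, and each measured marker was well above background on all arrays of at least 1 genotype. Monocyte and macrophage markers, 14 of 16 measured, did not follow: 3 of 14 were higher on WT replicate 2 than on WT replicate 1, and their mean was 3.87, 3.78 and 3.84 in WT and 4.03, 4.02 and 3.86 in FoxO1 +/- wounds. Hair follicle markers, 7 of 8 measured, had a mean of 1.06 on WT replicate 1 and -3.40 to -2.11 on the other arrays. Krt27, Krt35 and Krt71 were kept through the WT arrays and were above background on only 2, 1 and 1 FoxO1 +/- arrays. On WT replicates 1 and 2, Krt71 was at 4.93 and -4.35, whereas Msx2 was at -0.59 and -0.06. Msx2 was the only 1 of the 7 that was higher on WT replicate 2. Adipocyte markers, 7 of 7 measured, moved among the WT arrays in the opposite way to the neutrophil markers. Their mean was 3.51, 2.51 and 3.03 in WT and 3.64, 3.97 and 4.04 in FoxO1 +/- wounds. All 7 had higher means in FoxO1 +/- wounds, with a median difference of 0.83, while 0 passed limma's adjusted p of 0.05. Of the 7, 4 had groups that did not overlap, against 11.5% of all genes. An unadjusted limma p under 0.05 was seen for 4, against 6.25% of all genes. All 7 were lower on WT replicate 2 than on WT replicate 1. All 8 endothelial markers also had higher means in FoxO1 +/- wounds, against 53.7% of all genes, with a median difference of 0.18. Of the 8, 0 passed limma's adjusted p of 0.05. Their mean was 1.43 to 1.60 in WT and 1.56 to 1.79 in FoxO1 +/- wounds. Mast cell markers, 6 of 7 measured, were all lower on WT replicate 2 than on WT replicate 1 and had a mean of 0.41 to 0.98 in WT and 0.77 to 1.22 in FoxO1 +/- wounds. Muscle markers, 6 of 6 measured, had a mean of 3.33 to 4.93 in WT and 3.40 to 4.79 in FoxO1 +/- wounds. Erythrocyte and platelet markers, 5 of 7 measured, also rose, 4 of 5 being higher on WT replicate 2 than on WT replicate 1. Their mean was 2.66, 3.29 and 3.09 in WT and 2.82, 3.14 and 3.62 in FoxO1 +/- wounds. Among them Ppbp rose by 2.01, more than Cxcr2 (1.61). Dendritic cell, lymphocyte and fibroblast markers were higher on WT replicate 2 for 5 of 9, 5 of 9 and 5 of 8. The part of these cell types in the levels of Cd14, Tlr6 and Tlr2 was not tested.

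**Figure D3:**
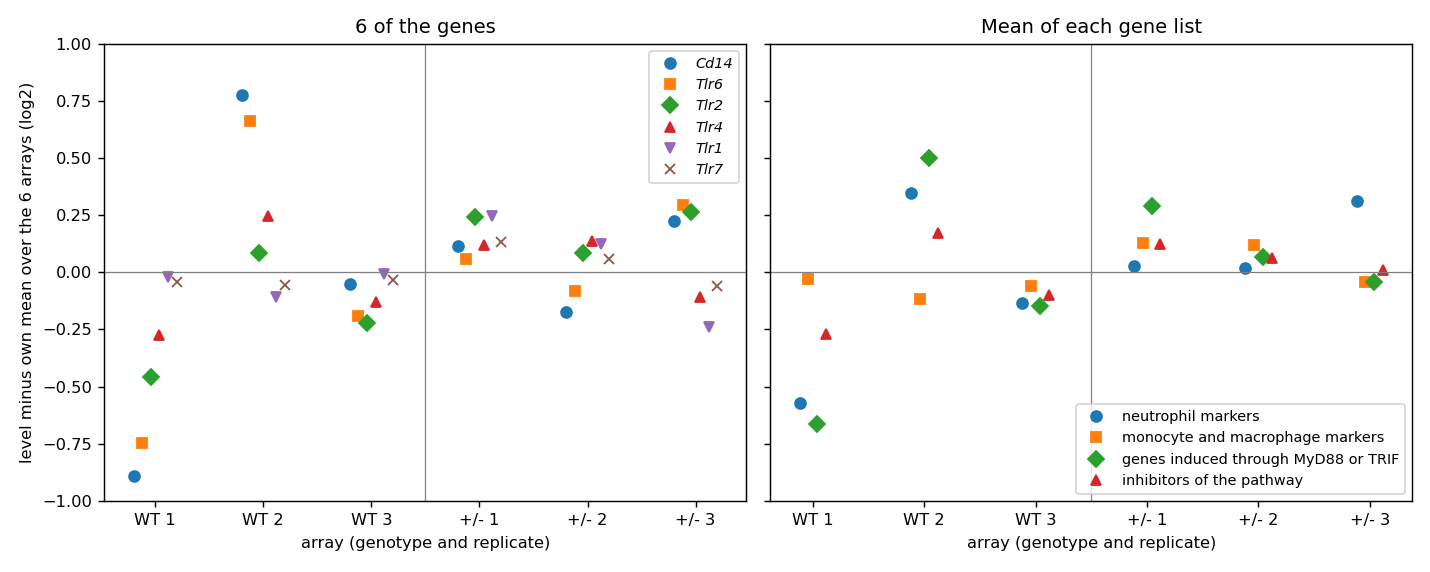
Left, levels of 6 of the genes on each array minus the gene's own mean over the 6 arrays (log2); right, the same for the mean of 4 gene lists. Cd14, Tlr6, the neutrophil markers and the genes induced through MyD88 or TRIF lie low on WT replicate 1 and high on WT replicate 2, whereas Tlr1, Tlr7 and the monocyte and macrophage markers do not.

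The genes whose profiles were nearest were found by the root mean square difference of log2 levels over the 6 arrays, after each gene's own mean was subtracted. For Cd14 these were Rab20 (0.060), Cstdc4 (0.072) and Sgms2 (0.074). For Tlr6 they were Rab20 (0.064), the myeloid C-type lectin gene Clec4d (0.067) and Lhx8 (0.071). For Tlr2 they were Gm5741 (0.047), the short-chain fatty acid receptor gene Ffar2 (0.056) and the angiogenic factor gene Vegfa (0.083). Rab20, a small GTPase gene, was nearest to both Cd14 and Tlr6, with levels of -0.76, 0.78 and -0.06 in WT and 0.15, -0.12 and 0.37 in FoxO1 +/- wounds.

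Along the rest of the pathway, 99 genes of 7 lists were measured and 0 passed limma's adjusted p of 0.05 over all genes. At an unadjusted p under 0.05 there were 7, all higher in FoxO1 +/- wounds, against 6.25% of all genes in either direction. Of all genes, 11.5% had groups that did not overlap, in either direction. By list these were 0 of 4 other receptors, 2 of 13 co-receptor genes and 0 of 4 other adaptors. Further along they were 1 of 27 kinases and factors, 3 of 19 inhibitors, 1 of 19 induced genes and 3 of 13 endogenous ligands. The 4 other Toll-like receptor genes, Tlr5, Tlr8, Tlr11 and Tlr12, were measured, 2 with higher and 2 with lower means in FoxO1 +/- wounds and a median difference of -0.03. That median was 0.33 with slide row as a block and -0.17 to 0.12 with 1 array left out at a time. Tlr5, the flagellin receptor, differed by -0.21 (SE 0.12, adjusted p 0.851) and Tlr8, the neighbour of Tlr7 on chromosome X, by 0.12 (SE 0.14, adjusted p 0.962). Of 13 measured co-receptor, chaperone and ligand-transfer genes, 11 had higher means, against 53.7% of all genes, with a median of 0.09. Ly96, which encodes MD-2, was at 1.92, 2.04 and 1.87 in WT and 2.12, 2.07 and 2.17 in FoxO1 +/- wounds, groups that did not overlap, with a difference of 0.18 (SE 0.08, adjusted p 0.826). The protease gene Ctss, which cuts endosomal receptors, differed by 0.18 (SE 0.09, adjusted p 0.849) and by 0.05 with quantile normalization. Of 4 other measured adaptor genes, 1 had a higher mean, and the median was -0.01, or 0.19 with slide row as a block and -0.15 to 0.09 with 1 array left out. Tirap, which bridges Tlr2 and Tlr4 to Myd88, differed by -0.07 (SE 0.13) and Ticam1, which encodes TRIF, by 0.04 (SE 0.11). Both changed sign when single arrays were left out.

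Of 27 kinases, ubiquitin ligases and transcription factors, 18 had higher means, against 53.7% of all genes. Their median was 0.03, or 0.11 with slide row as a block. Ikbke, a kinase of the interferon branch, averaged -1.06 ± 0.17 (SD, n = 3) across WT wounds against -0.74 ± 0.04 (SD, n = 3) with FoxO1 +/-, a difference of 0.32 (SE 0.10, limma adjusted p 0.667), and Mapk8, which encodes JNK1, differed by 0.22 (SE 0.13), or by 0.09 as the mean of its probes. Of 19 inhibitors, 15 had higher means, with a median of 0.11, which was 0.02 without WT replicate 1 and 0.19 with slide row as a block. An unadjusted limma p under 0.05 was seen for 3 of the 19, all higher, against 6.25% of all genes in either direction. Groups did not overlap for 3 of the 19, against 11.5% of all genes. Tollip, 1 of these 3, was lower in FoxO1 +/- wounds, with a difference of -0.06. Tnip1, which binds A20, was at 3.51, 3.45 and 3.43 in WT and 3.86, 3.68 and 3.76 in FoxO1 +/- wounds. Its groups did not overlap, and the difference was 0.31 (SE 0.08, limma adjusted p 0.540). Tnfaip3, which encodes A20, an enzyme that ends NF-kappaB signalling, was at 1.81, 2.54 and 2.12 in WT and 2.84, 2.62 and 2.76 in FoxO1 +/- wounds. Every FoxO1 +/- array lay above every WT array, with a difference of 0.58 (SE 0.19, limma adjusted p 0.700).

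Of the 19 measured induced genes, 14 had higher means in FoxO1 +/- wounds, against 53.7% of all genes, with a median difference of 0.06. That median was -0.27 without WT replicate 1 and 0.49 without WT replicate 2. Saa3, an acute-phase gene, was at 6.10, 6.91 and 6.62 in WT and 6.96, 7.05 and 7.25 in FoxO1 +/- wounds, groups that did not overlap, with a difference of 0.54 (SE 0.21, limma adjusted p 0.798) that was 0.32 without WT replicate 1. Tnf was at 1.27, 2.31 and 1.21 in WT and 2.11, 2.25 and 2.38 in FoxO1 +/- wounds, a difference of 0.65 (SE 0.30, limma adjusted p 0.826) that was 1.01 without WT replicate 2. Ifnb1, the interferon beta gene, had 1 probe, which exceeded background on 0 arrays and was not tested. Of 13 measured endogenous ligands of these receptors, 8 had higher means, with a median of 0.07, which was -0.02 without WT replicate 3 and 0.19 without WT replicate 2. The proteoglycan gene Bgn differed by 0.25 (SE 0.08, limma adjusted p 0.672) and the cathelicidin gene Camp, also a neutrophil marker, by 0.70 (SE 0.25, limma adjusted p 0.776), or by 0.46 without WT replicate 1.

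**Figure D4:**
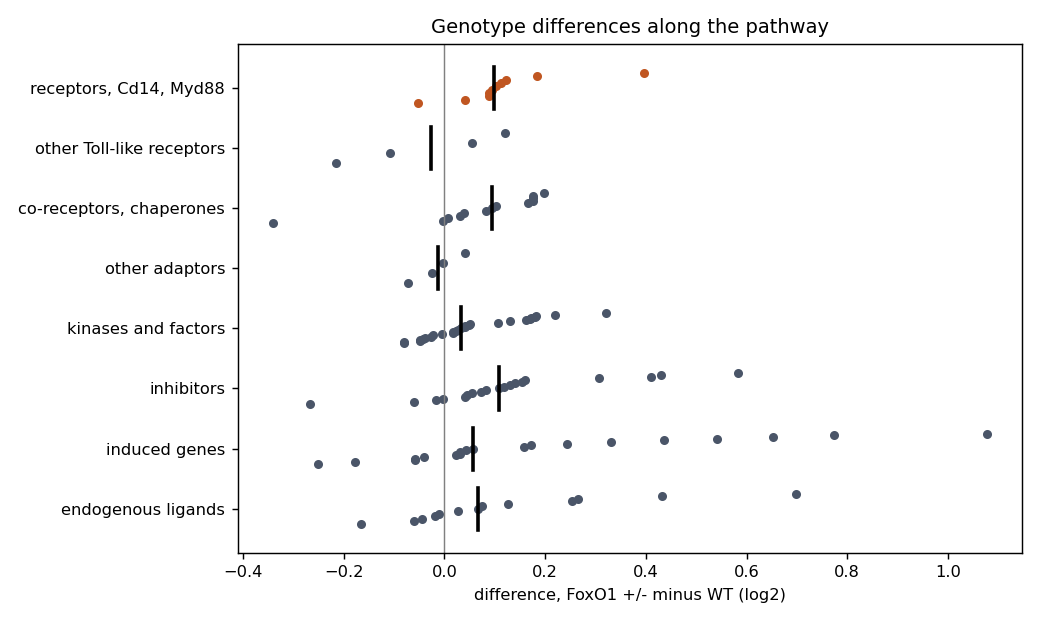
Log2 difference FoxO1 +/- minus WT of every measured gene (points) of the 10 genes (orange) and of 7 pathway lists (grey), with each list's median (bar). List medians lie between -0.03 and 0.11, and single genes reach 1.08 among the induced genes.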

How the data were processed

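Wound RNA of 3 WT and 3 FoxO1 +/- mice (200 ng each) was labelled with Cy3 and read on 1-colour Agilent arrays; each array was taken as 1 animal. The deposited files hold spot intensity on a linear scale, extracted by the authors with Agilent Feature Extraction 10.7.1.1, per the file headers (version 9.1 per the submitters' processing notes). Per the file headers, that signal had been corrected for background and spatial trend on each array, not scaled between arrays. Flags with other values of 0 or 1 were used as deposited. The authors' value table holds the same signal rounded.

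Here spots flagged as outliers were left out, log2 values of a probe were averaged, and the 75th percentile of the array, taken over the non-control probes (55681, less 36 incomplete ones), was subtracted. Probes well above background, on over 0.5 of their spots, on every array of at least 1 genotype were kept (37898). Symbols came from accessions through a RefSeq table (GRCm38.p6), while the array design was annotated on an older build, so no coordinates of probes are given. The brightest probe stood for a gene, which left 16408 genes. FoxO1 +/- minus WT was tested with limma 3.58.1 (R 4.3.3, two-sided, Benjamini-Hochberg over all genes). SE and intervals are limma's, and precision is limited by 3 arrays per group; nothing in the labels says how wounds were pooled, so each p reflects only array-to-array spread, which may be technical. The fit was run on simulated data, with independent noise per gene and planted changes larger than any of the 10 genes showed. That run cannot tell how well differences as small as these are found. The 10 genes and all lists were chosen with earlier results of these data known. In each pathway list the 2 genes with the smallest p are named, and nearest profiles are given for the 3 genes with the widest range.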

Additional observations from a re-analysis of the deposited data

How the results depend on the processing

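In 16 alternatives none of the 10 genes passed an adjusted p of 0.05. The count over all genes, 1 in the fit as reported, was 0 with normexp background correction, 2 with quantile normalization, 5 with median centring, 3 without a filter on dim probes, 0 with probes well above background on all arrays, 7 with slide row as a block, 4 within slide row 1, and 0 to 28 with 1 array left out at a time. With the replicate number as a block the count over all genes was 0. Same-numbered arrays had correlations of -0.07, -0.14 and -0.30 between deviations from their group means. Such deviations sum to 0 within each group, so these values cannot tell whether the numbers pair the animals. The replicate block left the median of the 10 genes at 0.10. That median ran from 0.07 to 0.17 over the other settings and from 0.03 to 0.18 with 1 array fewer, and 8 or 9 (6 to 9) genes had higher means, a count added after the data were seen. Signs turned for Cd14 with quantile normalization (-0.018), Sgms2 with normexp (-0.0019) and Tirap with the slide row block and in row 1 by itself (0.068).

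When single arrays were left out, differences ran from -0.013 to 0.23 for Tlr1, -0.0088 to 0.25 for Tlr4, -0.14 to 0.56 for Tlr6, -0.12 to 0.018 for Tlr9, -0.31 to 0.53 for Cd14, -0.039 to 0.20 for Myd88, -0.16 to 0.037 for Tirap and -0.021 to 0.15 for Ticam1. They ran from -0.23 to 0.54 for Rab20, -0.35 to 0.55 for Cstdc4, -0.37 to 0.49 for Sgms2, -0.14 to 0.51 for Clec4d and -0.14 to 0.55 for Lhx8. No other gene whose difference is given changed sign. Of the list medians, those of the other Toll-like receptor genes and the other adaptors turned positive with normexp (0.053 and 0.028) and with the slide row block (0.33 and 0.19). With single arrays left out, these 2 medians and those of the induced genes and the endogenous ligands took both signs. Moves without a change of sign were seen for Ctss without WT replicate 3 (0.105), Mapk8 with the slide row block (0.108), without WT replicate 1 (0.130) and without FoxO1 +/- replicate 2 (0.117), Tlr5 with normexp (-0.092) and without WT replicate 2 (-0.129), Tlr8 with the slide row block (0.28) and with single arrays left out (0.043 to 0.235), Tlr3 (0.036 to 0.28), Tlr7 (0.045 to 0.14) and Tlr13 (0.025 to 0.22) with single arrays left out. The normexp alternative used median spot signals, the column held by the files. Tlr3 and the dim list genes lie nearest to background, where signal limits precision.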
